A study of Bos taurus with 12 samples.

Results

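PAX5 (ENSBTAG00000012498) is the transcription factor that holds cells to the B lineage, and its transcript was taken here by its identifier as 1 of the 27607 genes counted in the PWBCs (peripheral white blood cells) of 12 heifers. Each heifer gave 1 library. The animals were Simmental-Angus cross-bred beef heifers that had all gone through the same synchronized breeding protocol, with gonadotropin-releasing hormone, an intravaginal progesterone device and prostaglandin, and were bled 2 days before artificial insemination (AI). The 6 fertile heifers carried the label Pregnant and were, by the study's methods, drawn from animals that conceived to the first AI, whereas the 6 subfertile heifers carried the label Open and had conceived neither to AI nor to the bulls that followed. Reproductive tract score was 4 in 5 heifers of each group and 5 in fertile heifer 2 and subfertile heifer 1. Blood is a mixture of cell types and no cell count was used here, so fewer B cells and less PAX5 RNA per B cell cannot be told apart in these libraries.

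PAX5 is made from the early B cell progenitor to the mature B cell and is shut off when a B cell becomes an antibody-secreting plasma cell. It binds and activates genes of the B cell receptor and its signalling chain, among them CD79A, and keeps genes of other lineages and of the plasma cell program low. In blood it is made almost only by B cells, which is why its transcript is often read as a measure of B cell share. The questions put to the counts were how PAX5 varied among heifers, whether it differed between fertility groups, and which genes, B cell genes among them, went up and down with it. In the RefSeq annotation of another bovine assembly, ARS-UCD2.0, PAX5 lies between MELK and ZCCHC7 and overlaps no other gene.

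Library totals ran from 14010736 to 21278761 counts, and no pair of libraries held identical values. The same unnamed gene, ENSBTAG00000043561, was the most abundant in every library and took between 1.82% and 7.40% of the counts. It took 5.46% or more in fertile heifers 2, 3 and 5 and subfertile heifers 2, 4 and 5, and 3.71% or less in the other 6 libraries. The share did not differ between fertility groups beyond its spread (two-sided exact permutation test, P = 0.671). Because PAX5 was lower on average in the first of these sets, r within each set is given below beside the pooled value for the B cell genes and for the list medians printed. Each such r rests on 6 libraries and no difference in r between the sets was tested, so that a change of sign is only a description. CPM here means counts scaled to the TMM-corrected library size.

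PAX5 was detected in every library, with 164 to 746 counts. In fertile heifers 1 to 6 it stood at 31.9, 23.5, 22.1, 31.4, 35.9 and 30.4 CPM. In subfertile heifers 1 to 6 it stood at 26.7, 11.7, 19.6, 14.4, 15.9 and 34.6 CPM. The fertile values were close together, whereas the subfertile values spread from the lowest library of the study to the second highest. The mean was 29.2 ± 5.33 CPM in fertile heifers (SD, n = 6) and 20.5 ± 8.64 CPM in subfertile heifers (SD, n = 6), with coefficients of variation of 18.2% and 42.2%. The groups overlapped: 4 of 6 subfertile heifers lay below every fertile heifer and 2 lay inside the fertile range. The highest library held 3.07 times the PAX5 of the lowest. Counting error was small against this, since the exact Poisson interval (95%, counting error only) had a median half-width of 9.62% of the value. Subfertile heifer 2, the lowest, had an interval of 9.99 to 13.6 CPM, and fertile heifer 3, the lowest of its group, one of 19.9 to 24.5 CPM. The interval of subfertile heifer 3, 17.7 to 21.8 CPM, reached into that of fertile heifer 3, so that these neighbours in the order did not differ beyond counting error.

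**Figure D1:**
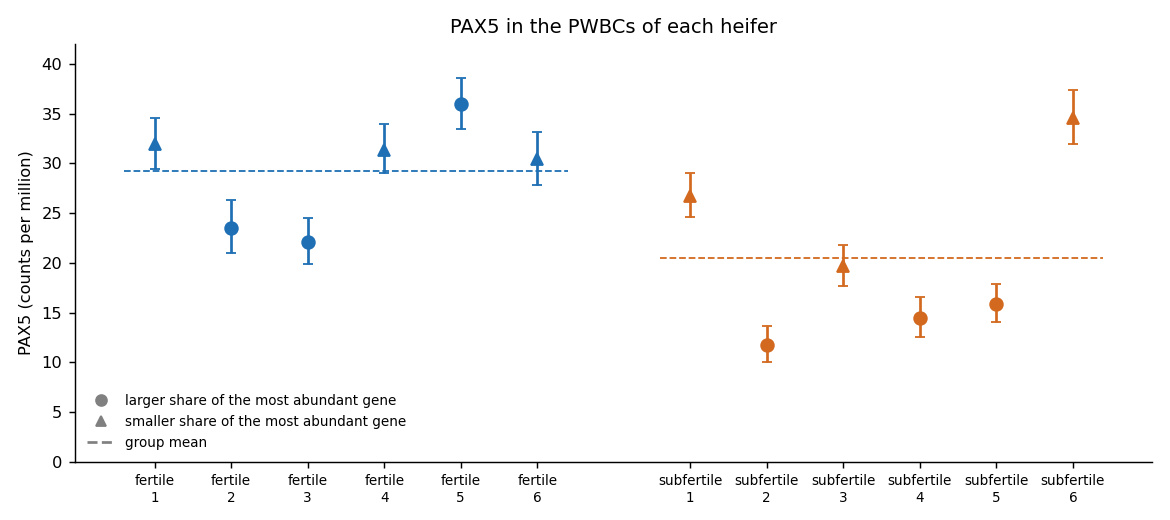
PAX5 in CPM (y axis) in each of the 12 libraries (x axis), with bars for the 95% Poisson counting interval, dashed lines for the group means, circles for the 6 libraries in which the most abundant gene took 5.46% or more of the counts and triangles for the other 6. The 3 lowest values, 11.7 to 15.9 CPM, are all subfertile circles, and subfertile heifer 6, at 34.6 CPM, stands among the highest.

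Between groups, PAX5 was lower in subfertile heifers by the thresholds of the study, which are an unadjusted P no higher than 0.05 together with a log2FC of at least 0.5 in either direction. Its log2FC, subfertile against fertile, was -0.51 (SE 0.24, 95% interval -0.97 to -0.047), a fold change of 0.703, with unadjusted P = 0.0487 and adjusted P = 0.9998 (Benjamini-Hochberg) in edgeR's quasi-likelihood test. At these thresholds edgeR called 182 of 13012 genes (1.4%), 96 of them lower (0.738%) and 86 higher in subfertile heifers. The study counts PAX5 among the genes it called in these libraries, so this call is no independent evidence of a difference. In the same edgeR fit 325 genes had a smaller unadjusted P. No gene passed an adjusted P of 0.05 in edgeR, while 341 had an unadjusted P of 0.05 or less. The two-sided exact permutation test of mean log2 CPM over all 924 labelings of the heifers gave P = 0.0519 for PAX5, where the smallest possible was 0.00216.

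The direction was the same in every fit tried, but the call was not. PAX5 also passed both thresholds in DESeq2 (log2FC -0.51, unadjusted P = 0.0382, adjusted P = 0.99975) and in voom with limma (log2FC -0.56, unadjusted P = 0.0261, adjusted P = 0.998). It missed the P threshold with RLE size factors (unadjusted P = 0.0507, adjusted P = 0.99948) and with library size alone (log2FC -0.48, unadjusted P = 0.103, adjusted P = 0.99993) in edgeR. Leaving out each library in turn, the edgeR log2FC ran from -0.72 without subfertile heifer 6 to -0.39 without subfertile heifer 2. The call was lost in 8 of these 12 fits, those without fertile heifers 1, 4, 5 or 6 and without subfertile heifers 2, 3, 4 or 5.

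**Figure D2:**
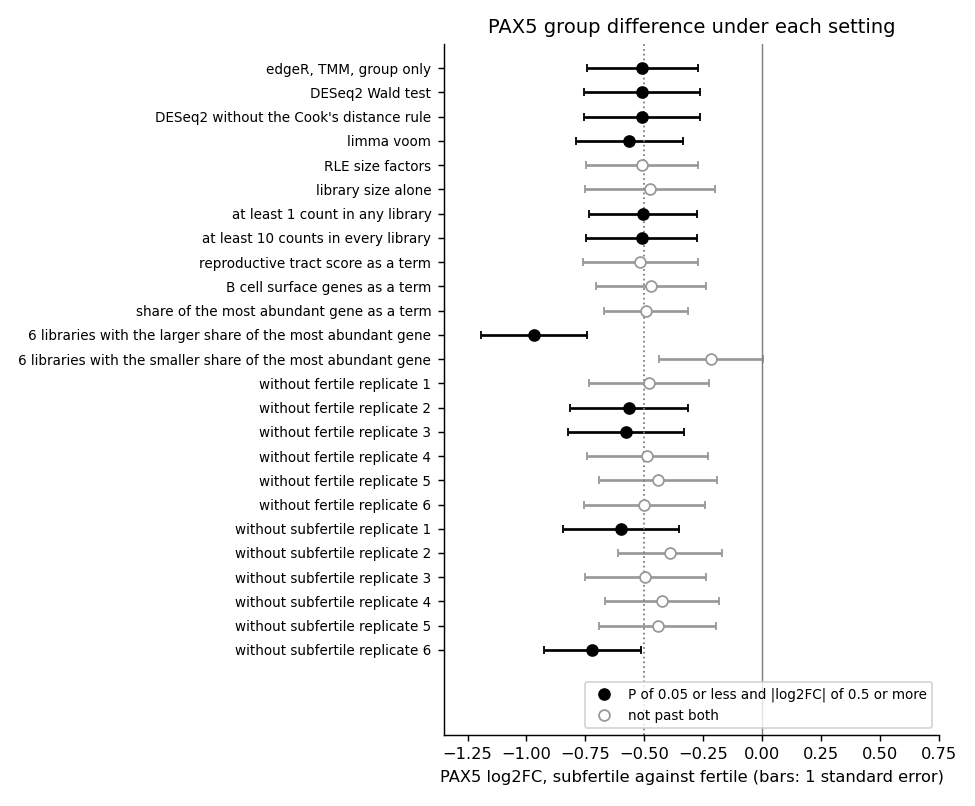
PAX5 log2FC, subfertile against fertile (x axis, bars for 1 standard error), under each fit (y axis), with filled points where both thresholds were passed and open points elsewhere. Every point lies below 0, from -0.97 in the 6 libraries with the larger share of the most abundant gene to -0.22 in the other 6.

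The 6 libraries with the larger share of ENSBTAG00000043561 were lower in PAX5 on average, although fertile heifer 5, the highest of all 12, was among them. With fertility group in the model, PAX5 was lower there by a log2 difference of -0.57 (SE 0.19, unadjusted P = 0.0103, adjusted P = 0.308 in edgeR). Within that set the groups did not overlap. Subfertile heifers 2, 4 and 5 stood at 11.7, 14.4 and 15.9 CPM, and fertile heifers 2, 3 and 5 at 23.5, 22.1 and 35.9 CPM. The log2FC was -0.97 (SE 0.23, unadjusted P = 0.0019, adjusted P = 0.995 in edgeR), and the exact permutation P was 0.1, the smallest that 3 against 3 allows. In this set 0.895% of 13075 genes were called lower in subfertile heifers. Of all genes tested, 4.93% had their 3 subfertile libraries below their 3 fertile libraries in this set. In the other 6 libraries the fertile values lay between 30.4 and 31.9 CPM, the subfertile values were 26.7, 19.6 and 34.6 CPM, and the log2FC was -0.22 (SE 0.22, unadjusted P = 0.353, adjusted P = 0.851 in edgeR). The difference between the 2 log2FC values was -0.75 (SE 0.33, unadjusted P = 0.0405, adjusted P = 0.733 in edgeR). With the share of ENSBTAG00000043561 as a term, the PAX5 log2FC was -0.49 (SE 0.18, unadjusted P = 0.0159, adjusted P = 0.995 in edgeR), under the fold threshold. This split of the libraries was made after the data were seen, and what sets the share was not tested.

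Naming limited the B cell lists. Gene names were taken from the study's tables of results and co-expressed genes, which name 2900 of the 27607 genes counted, so that MS4A1, CD22 and EBF1, for example, were not analysed here. Of 20 B cell surface and receptor genes listed, 2 had a name among the genes tested, CD79A and FCRL5. B lineage transcripts were present in every library, since CD79A, a signalling chain of the B cell receptor and a known target of PAX5, lay between 334.9 and 719.1 CPM. The level of PAX5 is not compared with that of other genes, because transcript lengths were not used here. Comparisons are of how each gene varied over the heifers.

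CD79A showed no clear relation to PAX5. In fertile heifers 1 to 6 CD79A stood at 334.9, 508.6, 587, 719.1, 503.7 and 643.7 CPM. In subfertile heifers 1 to 6 it stood at 368.6, 445.2, 481.8, 398.6, 697.9 and 581.8 CPM. Fertile heifer 1 had the lowest CD79A and the third highest PAX5, and subfertile heifer 5 had the second highest CD79A and the third lowest PAX5. Over the 12 libraries the Pearson correlation of log2 CPM was r = 0.13 (permutation P = 0.69) and Spearman's rho was 0.10 (permutation P = 0.746). Without subfertile heifers 2 and 4, the 2 libraries farthest from the PAX5 median, r was -0.21, and with library size alone it was 0.27. Within the larger-share and smaller-share libraries r was 0.22 in both. CD79A had a log2FC of -0.15 (SE 0.19, unadjusted P = 0.44, adjusted P = 0.9998 in edgeR) between groups.

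FCRL5, an Fc receptor-like protein of the B cell surface, had a higher r with PAX5 than CD79A did. It stood at 155.7, 173.3, 163.1, 144.8, 192.6 and 171.1 CPM in fertile heifers 1 to 6. In subfertile heifers 1 to 6 it stood at 193.9, 136.6, 184.8, 124, 156.9 and 185 CPM. The 3 subfertile libraries lowest in PAX5 were also the 3 lowest of that group in FCRL5. Its r with PAX5 was 0.62 (permutation P = 0.0331, adjusted P = 0.623) and its rho 0.52 (permutation P = 0.0849). Within groups r was 0.13 in fertile and 0.83 in subfertile heifers, and a difference between these was not tested. Without subfertile heifers 2 and 4, r was 0.17, so that the relation rests on those libraries. It was 0.90 in the larger-share libraries and -0.42 in the smaller-share ones. The median r over both surface genes was 0.56 and -0.10 in these sets. FCRL5 had a log2FC of -0.03 (SE 0.12, unadjusted P = 0.817, adjusted P = 0.9998 in edgeR).

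PAX5 was also set against both surface genes within each library. The log2 of PAX5 over the geometric mean of CD79A and FCRL5 was -3.37 ± 0.35 in fertile heifers (SD, n = 6) and -3.86 ± 0.49 in subfertile heifers (SD, n = 6). The difference, subfertile minus fertile, was -0.49 (two-sided exact permutation test, P = 0.0714), against -0.59 (exact permutation P = 0.0519) for log2 CPM of PAX5 alone. Against CD79A alone it was -0.44 (exact permutation P = 0.212). It passed P of 0.05 without subfertile heifer 1 (-0.60, exact permutation P = 0.0433) and without subfertile heifer 6 (-0.62, exact permutation P = 0.0346). With the mean log2 CPM of CD79A and FCRL5 as a term in edgeR, the log2FC of PAX5 was -0.47 (SE 0.23, unadjusted P = 0.0631, adjusted P = 0.99999), and it passed neither threshold.

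**Figure D3:**
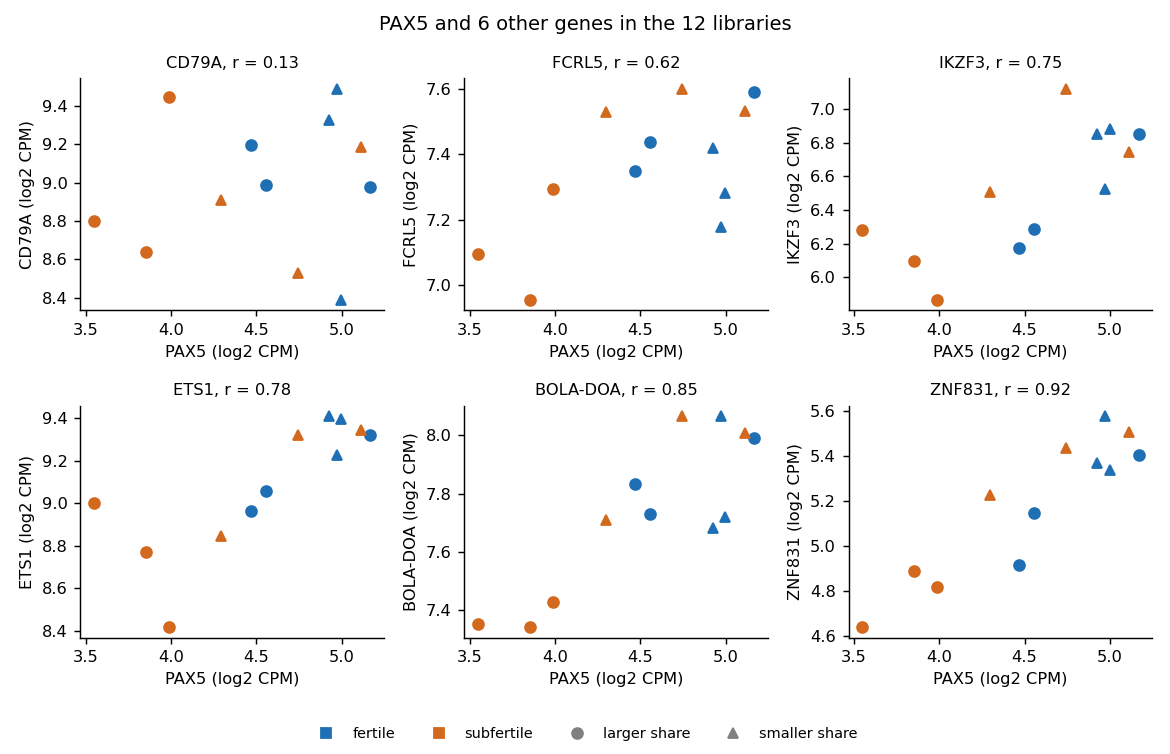
Log2 CPM of PAX5 (x axis) against log2 CPM of CD79A, FCRL5, IKZF3, ETS1, BOLA-DOA and ZNF831 (y axes), 1 point per library, blue for fertile, orange for subfertile, circles for the larger and triangles for the smaller share of the most abundant gene. CD79A, a listed gene, has r = 0.13, and ZNF831, shown because it has the highest r of the named genes, has r = 0.92.

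Of 20 B cell transcription factors listed besides PAX5, 5 were measured under a name, and their median r with PAX5 was 0.49, against -0.04 over all 13011 other genes. It was 0.62 in the larger-share and 0.71 in the smaller-share libraries. ETS1, which restrains the passage of B cells to plasma cells and is also abundant in T cells, had the highest, with r = 0.78 (permutation P = 0.00239, adjusted P = 0.365) and rho = 0.78 (permutation P = 0.00428). It stood at 674.2, 532.9, 499, 599.3, 638.9 and 680.7 CPM in fertile heifers 1 to 6. It stood at 640.6, 512.9, 460.8, 437.4, 342.1 and 649.4 CPM in subfertile heifers 1 to 6. Fertile heifers 2 and 3, lowest in PAX5 among the fertile, were also lowest in ETS1, and r was 0.93 without subfertile heifers 2 and 4. It was 0.62 in the larger-share and 0.87 in the smaller-share libraries.

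IKZF3 (Aiolos), an Ikaros family factor of mature B cells that T and NK cells also use, had r = 0.75 (permutation P = 0.00589, adjusted P = 0.414) and rho = 0.77 (permutation P = 0.00478). Its levels were 117.9, 77.98, 72.21, 92.19, 115.7 and 115.7 CPM in fertile heifers 1 to 6. Its levels were 139, 77.85, 91.09, 68.42, 58.34 and 107.4 CPM in subfertile heifers 1 to 6. Fertile heifers 2 and 3 and subfertile heifers 2, 4 and 5 were the 5 lowest in IKZF3, whose r was 0.72 in the larger-share and 0.27 in the smaller-share libraries. TCF4, an E protein of B cells and plasmacytoid dendritic cells, had r = 0.49, with 0.68 in the larger-share and -0.46 in the smaller-share libraries. MEF2B, a germinal centre factor near 3 CPM, had r = 0.12, with -0.09 and 0.71 there. BCL6, a transcriptional repressor that germinal centre B cells need, had a negative value, r = -0.56 (permutation P = 0.0579). It was -0.90 in fertile and -0.57 in subfertile heifers, and turned to 0.80 in the smaller-share libraries against -0.60 in the larger-share ones.

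Of 20 genes of B cell receptor signalling listed, 7 were measured under a name and 6 of them had a positive r with PAX5 over the 12 libraries, with a median of 0.22. The median was 0.27 in the larger-share libraries and turned to -0.19 in the smaller-share ones. It was 0.51 with library size alone, 0.34 without fertile heifer 4 and 0.13 without subfertile heifer 5. RASGRP3, which activates Ras downstream of the receptor, had r = 0.74 (permutation P = 0.00515, adjusted P = 0.393) and rho = 0.76 (permutation P = 0.00563). Its highest levels were 90.25 CPM in subfertile heifer 1 and 71.18 CPM in fertile heifer 5, and its lowest were 43.46, 48.79 and 49.21 CPM in subfertile heifers 5, 4 and 2. These 3 heifers were also the lowest in PAX5. Its r was 0.88 in the larger-share and -0.01 in the smaller-share libraries. The kinase SYK had r = 0.43, the exchange factor VAV2 0.38, the kinase PRKCB 0.22, the paracaspase MALT1 0.18 and the adaptor DAPP1 0.14. All 5 had a negative r in the smaller-share libraries (SYK -0.42, VAV2 -0.22, PRKCB -0.16, MALT1 -0.19 and DAPP1 -0.48) against 0.88, 0.12, 0.57, 0.10 and 0.27 in the larger-share ones. With 6 libraries a set, these changes of sign were not tested. The phosphatase INPP5D, which dampens the signal, had r = -0.12, which turned to 0.36 with library size alone, and was 0.14 in the larger-share and 0.10 in the smaller-share libraries. Several of these genes, SYK, PRKCB, MALT1 and INPP5D among them, are used by other blood cells too.

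A further 8 B cell genes were picked once it was known which genes have names, and their median r was 0.21, with 0.31 in the larger-share and 0.19 in the smaller-share libraries. With library size alone each of them had a higher r. REL, a subunit of NF-kB, had r = 0.61 (permutation P = 0.0341, adjusted P = 0.623) and rho = 0.66 (permutation P = 0.0237), with r of 0.60 in the larger-share and 0.28 in the smaller-share libraries. ARHGAP24, a regulator of small GTPases, had r = 0.49, and 0.20 without subfertile heifer 2. The sorting adaptor GGA2 had r = 0.40, SEL1L3 0.25 and TPD52 0.18. The adaptors STAP1 and LAT2 and the surface protein SUSD3 had negative values, -0.08, -0.29 and -0.22. With library size alone that of STAP1 turned to 0.16 and that of LAT2 to 0.10. In the smaller-share libraries r was -0.31 for ARHGAP24, -0.79 for TPD52, -0.70 for STAP1, 0.69 for GGA2, 0.65 for SEL1L3, 0.10 for LAT2 and 0.64 for SUSD3. In the larger-share ones it was 0.80, 0.37, 0.24, 0.53, 0.003, -0.21 and -0.70 in the same order, so that 5 of these 7 differed in sign between the sets.

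Genes that PAX5 is known to keep low were described next. Of 12 such genes listed, 3 were measured under a name, all of them plasma cell genes, and each had a negative r over the 12 libraries, with a median of -0.17. The median was -0.43 in the larger-share and -0.14 in the smaller-share libraries, and 0.05 with group means subtracted. It was -0.03 without subfertile heifer 5 and -0.35 without subfertile heifer 2. XBP1, which drives the secretory apparatus of plasma cells, had r = -0.43 (permutation P = 0.167), with values from 50.32 to 69.42 CPM over the 12 libraries. Its r was -0.57 in the larger-share and 0.41 in the smaller-share libraries. PRDM1 (Blimp-1), the factor that shuts off PAX5 in plasma cells, had r = -0.01, 0.05 with group means subtracted, and -0.50 without subfertile heifer 2. JCHAIN, the chain that joins secreted IgM and IgA, had r = -0.17, but 0.46 within fertile and 0.19 within subfertile heifers, and 0.26 with group means subtracted. In the larger-share and smaller-share libraries r was -0.04 and -0.14 for PRDM1, and -0.43 and -0.58 for JCHAIN. With library size alone, r of PRDM1 turned to 0.19 and that of JCHAIN to 0.05. SLAMF7, a further plasma cell gene that NK cells share, had r = -0.19, and 0.07 with library size alone, with -0.009 in the larger-share and 0.005 in the smaller-share libraries.

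JCHAIN was the B lineage gene that passed the thresholds in the direction opposite to PAX5. It stood at 382.3, 234.7, 236.5, 400.2, 275.8 and 201.6 CPM in fertile heifers 1 to 6. It stood at 359, 297.9, 657.3, 328.4, 561.4 and 405.9 CPM in subfertile heifers 1 to 6. The groups overlapped, with 3 subfertile heifers above every fertile one. The log2FC was 0.59 (SE 0.22, unadjusted P = 0.0179, adjusted P = 0.9998 in edgeR), and the exact permutation P was 0.0433. Without subfertile heifer 3, the highest, the log2FC was 0.44 and missed both thresholds in edgeR. Subfertile heifer 6 was high in both, with 34.6 CPM of PAX5 and 405.9 CPM of JCHAIN. In edgeR 86 of 13012 genes (0.661%) were called higher in subfertile heifers, and 2.48% of the 2900 named genes.

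No other gene of the B cell or plasma cell lists passed the thresholds. Of all 13012 genes tested 1.4% did, and of the 2900 named genes 2.69% were called lower and 2.48% higher. In lists this short the lack of further calls is near these shares and does not set PAX5 apart. The median log2FC was -0.09 over the 2 surface genes, 0.05 over the 5 transcription factors and 0.05 over the 7 signalling genes, against 0.008 over all other genes tested. IKZF3 had a log2FC of -0.13 (SE 0.20), ETS1 -0.25 (SE 0.15), RASGRP3 -0.07 (SE 0.16) and SYK 0.10 (SE 0.16). That a gene misses the threshold does not show that it was equal in the groups, since CD79A, for instance, varied with an SD of 133.3 CPM around 549.5 CPM in fertile heifers.

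**Figure D4:**
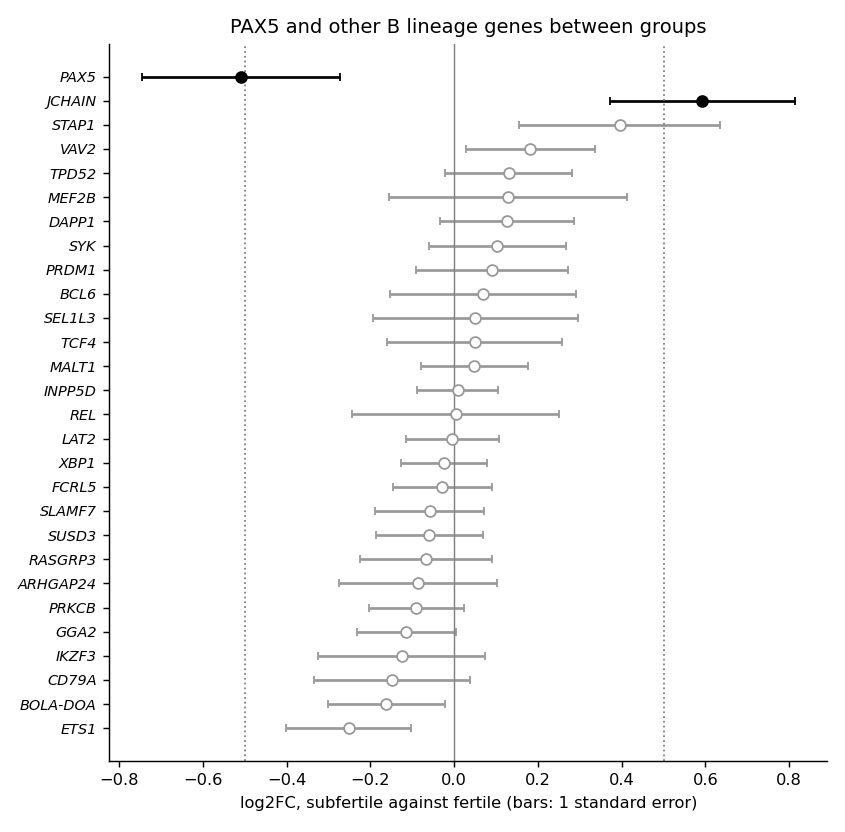
log2FC, subfertile against fertile (x axis, bars for 1 standard error), of PAX5 and the B cell, plasma cell and class II genes measured under a name (y axis), leaving out BOLA-DQB, whose log2FC of -5.28 lies off the scale. Filled points passed both thresholds, which PAX5 did at -0.51 and JCHAIN at 0.59, and dotted lines mark a log2FC of 0.5 in either direction.

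Of 14 class II antigen-presentation genes listed, which B cells, monocytes and dendritic cells use, 2 were measured under a name. BOLA-DOA, the alpha chain of a modulator of peptide loading made mainly in B cells, had r = 0.85 (permutation P = 0.00056, adjusted P = 0.365) and rho = 0.71 (permutation P = 0.0127). It stood at 211.1, 212.5, 228.2, 267.9, 254.4 and 205.4 CPM in fertile heifers 1 to 6. It stood at 268, 163.5, 209.3, 162.4, 172.2 and 257.3 CPM in subfertile heifers 1 to 6. The 3 subfertile heifers lowest in PAX5 were the 3 lowest of all 12 in BOLA-DOA. Its r was 0.96 in the larger-share and 0.33 in the smaller-share libraries, and 0.70 without subfertile heifers 2 and 4. Between groups its log2FC was -0.16 (SE 0.14, unadjusted P = 0.266, adjusted P = 0.9998 in edgeR).

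BOLA-DQB, a chain of a classical class II molecule, was called lower in subfertile heifers with a log2FC of -5.28 (SE 1.47, unadjusted P = 0.00286, adjusted P = 0.9998 in edgeR). It stood at 0.106, 333.3, 343.9, 387.3, 413.3 and 0.483 CPM in fertile heifers 1 to 6. It stood at 20.6, 0, 11.54, 0, 1.62 and 3.28 CPM in subfertile heifers 1 to 6. It was high in 4 fertile heifers and near 0 in fertile heifers 1 and 6, whose PAX5 was 31.9 and 30.4 CPM. Its r with PAX5 was 0.46 (permutation P = 0.132), with 0.90 in the larger-share and -0.21 in the smaller-share libraries, its exact permutation P between groups was 0.0996, and voom made no call (P = 0.351). Class II chains vary between animals and have close copies, so which copy the reads were counted on is uncertain.

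The genes that followed PAX5 most closely were looked for among all 13011 other genes. None passed an adjusted permutation P of 0.05, and the smallest was 0.217. At an unadjusted P of 0.05 or less, 591 genes (4.54%) went in the same direction as PAX5 and 415 (3.19%) in the opposite direction. An edgeR fit with log2 CPM of PAX5 as the term also called 0 genes at an adjusted P of 0.05, with 540 and 408 at an unadjusted P of 0.05 or less. With library size alone in place of TMM the 2 unadjusted counts were 1653 and 104, and the median r over all genes moved from -0.04 to 0.21. The genes below are therefore given as those whose pattern is most like that of PAX5, by Pearson r over 12 libraries, and not as called. In all, 50 genes had r of 0.8 or more and 13 had r of -0.8 or less. Of the 40 genes of highest r, 32 had no name in the tables used, including the highest, ENSBTAG00000026371, with r = 0.92.

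Among named genes of at least 1 CPM, ZNF831, a zinc finger protein, was closest to PAX5. It stood at 40.44, 35.39, 30.17, 47.8, 42.36 and 41.39 CPM in fertile heifers 1 to 6. It stood at 43.29, 24.93, 37.42, 29.66, 28.18 and 45.51 CPM in subfertile heifers 1 to 6. Its order over the heifers was close to that of PAX5, with subfertile heifer 2 lowest and subfertile heifers 5 and 4 next. Its r was 0.92 (permutation P = 5e-05, adjusted P = 0.217), its rho 0.85 (permutation P = 0.00091), and r was 0.85 without subfertile heifers 2 and 4. It was 0.85 in fertile heifers, 0.97 in subfertile heifers, 0.95 in the larger-share and 0.71 in the smaller-share libraries, values that the choice of ZNF831 for its r over these libraries favours. Between groups its log2FC was -0.18 (SE 0.16, unadjusted P = 0.269, adjusted P = 0.9998 in edgeR).

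The other 14 of the 15 named genes of highest r had values from 0.78 to 0.87. In order they were the Wnt receptor RYK (0.87), the forkhead factor FOXO3 (0.86), BOLA-DOA, the calcium-dependent kinase CAMK1D (0.85), the stress kinase OXSR1 (0.82), the glycosyltransferase ALG2 (0.82), the helicase ASCC3 (0.80), the chromatin remodeller ARID1A (0.80), HIVEP2 (0.80), the sialyltransferase ST3GAL1 (0.79), the nuclear envelope protein SYNE3 (0.79), the kinase TLK2 (0.79), ETS1 (0.78) and the heterochromatin protein CBX1 (0.78). ETS1 is the only gene of the B cell lists among them, and most of the rest are used in many cell types. CAMK1D and SYNE3 were closest within fertile heifers, with r of 0.94 and 0.99. RYK, BOLA-DOA and TLK2 had r of 0.37, 0.37 and 0.35 there, against 0.97, 0.95 and 0.84 in subfertile heifers. With group means subtracted, r of the 15 genes lay between 0.68 and 0.93. Their log2FC ran from -0.34 to -0.03, a direction that the choice on likeness to PAX5 favours. Between groups 0 of the 15 were called, where 1.4% of all 13012 genes tested were, so that this does not set them apart. TLK2 had an r of -0.05 in the smaller-share libraries, and the other 14 a positive value, which the choice of these genes over the same libraries favours.

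The 10 named genes of lowest r ran from -0.81 to -0.73. They were FAM200C (-0.81), VPS33B (-0.78) of vesicle sorting, the RNA exonuclease DIS3L (-0.78), the nuclear import receptor IPO13 (-0.75), the mitochondrial import protein TOMM34 (-0.75), CDK20 (-0.74), the zinc finger factor ZKSCAN5 (-0.74), the fatty acid hydroxylase CYP2U1 (-0.74), the copper protein CUTC (-0.73) and the fatty acid transporter SLC27A3 (-0.73). None is a marker in the lists used. All 10 had a log2FC above 0, a direction that their choice for a negative r with PAX5 favours. Of the 10, 1 was called, where 2.48% of the 2900 named genes were called higher. This was CYP2U1, called higher in subfertile heifers (log2FC 0.57, SE 0.21, unadjusted P = 0.0153, adjusted P = 0.9998 in edgeR). CYP2U1 stood at 4.96 to 6.55 CPM in fertile heifers, and at 12.57 and 10.46 CPM in subfertile heifers 2 and 4, lowest in PAX5. Without these 2 heifers its r was -0.26. In the smaller-share libraries r of CYP2U1 was 0.26 and that of SLC27A3 0.17, and that of the other 8 genes was negative, which their choice over the same libraries favours. It also lost the call without subfertile heifer 2 (log2FC 0.42) or 4 (log2FC 0.498) and in voom (log2FC 0.48). With library size alone the 10 values ran from -0.73 to -0.22, and those of the 15 positive genes from 0.82 to 0.92.

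Markers of other blood cells were set beside PAX5 in the same way. Of 16 neutrophil genes listed 4 were measured under a name, all with a negative r and a median of -0.43. Of 16 monocyte genes 6 were measured, with a median of -0.33, and 5 of 6 were negative, the exception being MS4A7 (r = 0.10). The granulocyte and monocyte receptor TREM1 had r = -0.59 (permutation P = 0.0424, adjusted P = 0.64), the calgranulin S100A9 -0.46 and the arginine deiminase PADI4 -0.41. Of the monocyte genes, the protease CTSS had r = -0.37 and the lectin LGALS3 -0.07. TREM1 was highest in subfertile heifer 4, at 14.72 CPM, and S100A9 in subfertile heifers 5 and 4, at 211.1 and 187.5 CPM, all of them low in PAX5. Yet subfertile heifer 2, the lowest in PAX5, had 71.14 CPM of S100A9. Fertile heifer 4, with 31.4 CPM of PAX5, had 114.9 CPM. Fertile heifer 6, with 30.4 CPM of PAX5, was lowest in S100A9 (21.69 CPM). In the smaller-share libraries the median r of the lists was 0.35 for monocytes and 0.16 for neutrophils, and it was negative only in the larger-share ones (-0.43 and -0.44). The summed CPM of the neutrophil list ran from 27.1 to 171.2 in fertile and from 58.4 to 230.8 in subfertile heifers, and its part in the PAX5 values was not tested.

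The lymphocyte lists had positive medians, 0.21 over 6 of 20 T cell genes and 0.14 over 5 of 16 NK cell genes. In the larger-share and smaller-share libraries they were 0.14 and 0.57 for T cells, and 0.32 and 0.37 for NK cells. With group means subtracted they were 0.03 and 0.08. The CD3 chain CD3E had r = -0.16, the transcription factor TCF7 0.04 and the coreceptor CD4 0.42. The 3 most abundant NK cell genes were the transcription factor TBX21 (r = 0.21), the cytotoxic protein PRF1 (0.14) and the receptor CD244 (-0.14). With single libraries left out these ran from -0.11 to 0.30, from 0.02 to 0.27 and from -0.41 to 0.16 in the same order. The median log2FC of the T cell genes was -0.18, and -0.08 without fertile heifer 6. At the thresholds 0 of the 6 were called, where 1.4% of all genes tested were.

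The median r was -0.05 over 5 of 12 platelet genes, with 0.50 in the larger-share and 0.26 in the smaller-share libraries. Their summed level spread from 528.6 to 9930 CPM and was highest in fertile heifer 6. All 5 had a log2FC below 0, with a median of -1.09, and -0.33 without that heifer. Of these genes 0 were called, where 1.4% of all genes tested were. Without the same heifer the log2FC of PAX5 was -0.50, and the part of platelet RNA in the PAX5 values was not tested. The tubulin TUBB1, the integrin chain ITGB3 and its partner ITGA2B, the 3 most abundant, had r of -0.05, -0.01 and -0.19. Over 4 of 12 genes of plasmacytoid dendritic cells the median was 0.26, with 0.34 and 0.30 within the sets, and IRF7, their most abundant, had r = -0.33. In these lists of other cells, 3 genes were called lower in subfertile heifers by edgeR, each with an adjusted P of 0.9998, where 0.738% of all genes tested were. The names come from tables that include the study's called genes, so that a name depends in part on a call, and among the 2900 named genes 2.69% were called lower. They were 1 of 6 monocyte genes, the 1 erythroid gene, and GZMB, which is 1 of 5 NK cell genes and also 1 of 4 of plasmacytoid dendritic cells. The cytotoxic protease GZMB stood at 9.23 ± 6.91 CPM in fertile and 4.58 ± 2.04 CPM in subfertile heifers (SD, n = 6 each). MS4A7 had a log2FC of -0.98 (SE 0.33), and -0.57 without fertile heifer 6, the highest. EPB42, a red cell membrane protein that alone stood for 12 erythroid genes, had one of -0.96 (SE 0.38). Its r with PAX5 was 0.50 (permutation P = 0.101, adjusted P = 0.743) and its rho 0.62 (permutation P = 0.03465, adjusted P = 0.592). That r was 0.87 in the larger-share and 0.80 in the smaller-share libraries. GZMB lost the call without fertile heifers 2, 5 or 6 and without subfertile heifers 1, 2, 3, 4 or 5, and EPB42 without fertile heifers 5 or 6 and without subfertile heifer 1. Ribosomal protein genes, added after values had been seen, had a median r of -0.19 over 19 genes, with 0.02 in the larger-share and 0.22 in the smaller-share libraries. The 14 genes of the respiratory chain and ATP synthase had one of -0.22, with -0.06 and 0.07 in these sets.

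**Figure D5:**
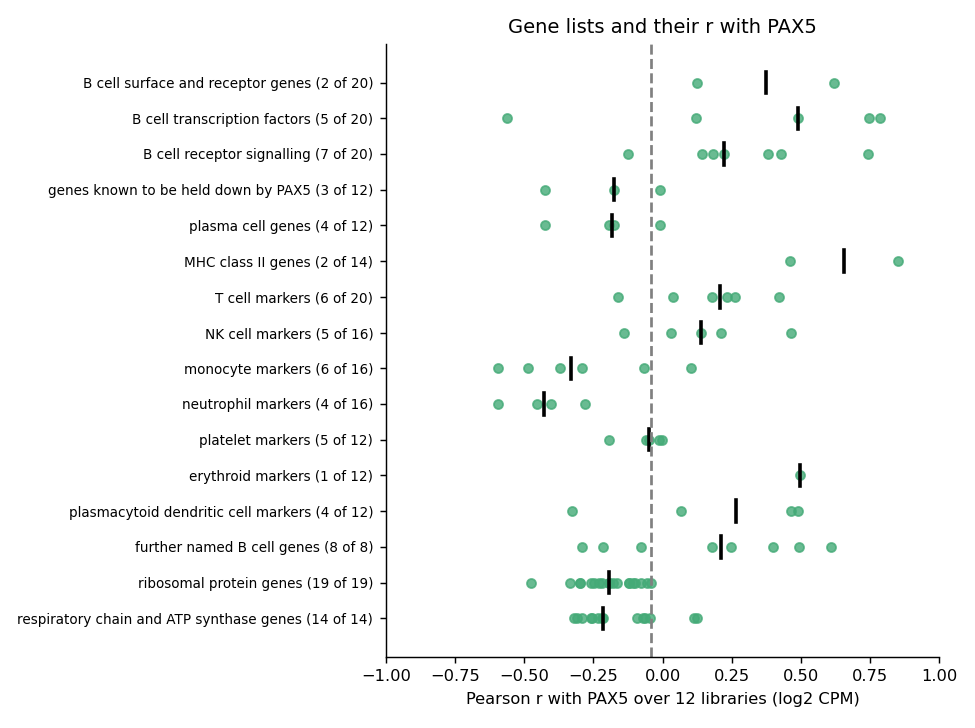
Pearson r with PAX5 over the 12 libraries (x axis) for each gene measured under a name in each list (y axis, with the number measured of the number listed), a black bar for the list median and a dashed line for the median over all genes, -0.04. B cell transcription factors reach from -0.56 to 0.78, and all 4 neutrophil genes lie below -0.28.

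Within each group, PAX5 was last set against all genes at the study's network threshold, an absolute Pearson correlation of 0.95 or more on variance-stabilized counts. In fertile heifers 41 genes reached it, 27 with a positive and 14 with a negative value. In subfertile heifers 28 genes reached it, 18 positive and 10 negative. The median over all genes tested was 56 in fertile and 61 in subfertile heifers, and 33.7% and 18.2% of genes had fewer than PAX5. With 6 libraries a group these counts are a description with no test.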

How the data were processed

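The authors mapped poly(A)-selected, strand-specific reads with STAR 2.7.5 to a bovine assembly, checked them with FastQC 0.11.9 and MultiQC 1.12, and deposited raw counts per Ensembl gene, without normalization. Which strand column was taken is not stated. Genes were kept with filterByExpr (minimum count 10, share 0.7), leaving 13012 of 27607. Counts were TMM-normalized and tested with edgeR 4.0.16 in R 4.3.3 (quasi-likelihood F test, group the only term, Benjamini-Hochberg adjustment). DESeq2 1.42.0, voom with limma 3.58.1, other size factors, filters and terms, and each library left out were alternatives. Correlations used log2 CPM (prior count 2) and 100000 permutations of the PAX5 values, in Python 3.11.15 with numpy 2.4.6.

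PAX5 and the gene lists were chosen with earlier results of these data known. Named genes are PAX5, measured genes of the B cell lists, the 15 symbols of highest and 10 of lowest r at a mean of at least 1 CPM, the 3 most abundant of each other list, and any list gene past the thresholds. LILRA4 and GP9 fall outside this rule and were named after their values were seen. On simulated counts, edgeR recovered 59 of 100 genes changed by a log2 of 1 and 94 of 100 changed by a log2 of 2, at an adjusted P of 0.05. It made 4 false calls, and a change as small as the log2FC of -0.51 of PAX5 was not simulated. The correlation test recovered 200 of 200 rows tied to PAX5, whose median absolute r was 0.977, with 7 false calls. Real genes reached r of 0.92 and -0.92 at most, so that recovery at the values reported here was not measured.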

Additional observations from a re-analysis of the deposited data

Results flagged for a closer look

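The PAX5 log2FC in the 6 libraries with the larger share of the most abundant gene was lower than that in the other 6 by -0.75 on the log2 scale (SE 0.33, unadjusted P = 0.0405, adjusted P = 0.733 in edgeR). The log2FC was -0.97 in the former and -0.22 in the latter, with 3 fertile and 3 subfertile heifers in each.

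Among PAX5 and the named and listed genes of every list but the ribosomal and respiratory ones, 81 genes and 162 groups of 6 libraries in all, 14 held a library that stood apart from the other 5 by more than Dixon's 95% limit, which chance alone gives in about 1 of 20 groups. None of the 14 is PAX5. Fertile heifer 6 stood apart in 7 genes, 4 of them platelet genes. Its TUBB1 was 7705 CPM, with the next fertile value at 2239 CPM, and its ITGB3 was 1930 CPM, with the next at 552 CPM. Its ITGA2B was 246.8 CPM, with the next at 113.6 CPM, and its GP9, a platelet glycoprotein, was 31.24 CPM, with the next at 8.26 CPM. Its MS4A7 was 107.9 CPM, with the next fertile value at 43.25 CPM. Its MEF2B was 4.35 CPM, with the next at 2.99 CPM. Its ARHGAP24 was the lowest, 12.99 CPM, with the next at 21.4 CPM. Subfertile heifer 4 stood apart in PRF1, at 108 CPM against 73.92 CPM for the next, and in CD244, at 46.23 CPM against 29.8 CPM. Subfertile heifer 5 stood apart in SLC27A3, at 10.3 CPM against 4.36 CPM for the next, and in LAT2, at 255.3 CPM against 206.4 CPM. Subfertile heifer 6, highest of its group in PAX5, was also apart in GZMB, at 8.445 CPM against 4.64 CPM, and in GGA2, at 81.65 CPM against 61.75 CPM. Subfertile heifer 2, lowest in PAX5, was apart in LILRA4, a plasmacytoid dendritic cell receptor, at 3.71 CPM against 0.985 CPM.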

How the results depend on the processing

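PAX5 was lower in subfertile heifers under every setting tried, and lost the call under 6 of them besides single libraries: RLE size factors (log2FC -0.51), library size alone (-0.48), reproductive tract score as a term (-0.52), CD79A and FCRL5 as a term (-0.47), the share of the most abundant gene as a term (-0.49) and the 6 libraries with the smaller share alone (-0.22). The last 2 were added after seeing the data. Leaving out single libraries gave -0.72 to -0.39. The number of genes called was 624 when a gene needed 1 count in any library, which tests 19434 genes, and ran from 118 without fertile heifer 6 to 365 without fertile heifer 1. The difference of PAX5 over CD79A and FCRL5 ran from -0.62 to -0.39 with single libraries left out. The number of genes following PAX5 stayed 0 under all 22 alternatives. The median r of the erythroid list, which is EPB42 alone, moved from 0.50 to 0.21 with group means subtracted. The median log2FC of the platelet list ran from -1.32 without fertile heifer 1 to -0.33 without fertile heifer 6. Some list medians near 0 changed sign, among them r of the genes held down by PAX5 (0.05 with group means subtracted) and log2FC of the neutrophil genes (from 0.14 to -0.25 without subfertile heifer 4). Where no cause is given, the cause was not tested. The groups are made of different heifers with 1 library each, so there were no pairs to analyse. The labels give the heifers no replicate numbers, and those used here only name them in accession order.

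PAX5 had 164 to 746 counts a library, and its counting interval (median half-width 9.62%) was narrow beside the variation of 18.2% and 42.2% among heifers. The limits were 6 heifers a group, names for few B cell genes, and that cell counts were not used here.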
